A study of Homo sapiens with 12 samples.

Results

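Exons that lie between 1 short intron (under 500 nt) and 1 long intron (5000 nt or more) were followed in human HEK293A-TOA cells after knockdown of SFSWAP, of UPF1 or of both. They were taken from the skipped exon events of the deposited tables by 4 limits, which are an exon longer than 30 nt and shorter than 300 nt, 1 flanking intron under 500 nt, the other of at least 5000 nt, and 10 or more inclusion plus skipping reads per library on average. For each exon, the most-read of the events within these limits was kept. This gave 3061 exons among 115209 listed events in the table without siUPF1 and, by coincidence, 3061 exons among 110136 listed events in the table with siUPF1. The lists hold 4241 different exons, of which 1881 are in both, 1842 of them as the same event. The kept event was also the exon's most-read event at 2724 of the 3061 exons without siUPF1 and at 2758 with it. At the others, which include the WDR34, 213 nt AMDHD2 and SRP9 exons named below, an event with flanks outside the limits had more reads.

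PolyA RNA was sequenced from 4 groups of 3 biological replicates. The siSFSWAP/siUPF1 cells received a mixture of 2 siRNAs against SFSWAP (40 nM) together with siRNA against UPF1 (30 nM), the siNT/siUPF1 cells non-target siRNA with the UPF1 siRNA, the siSFSWAP cells the SFSWAP siRNAs without siUPF1, and the siNT cells non-target siRNA. All 12 cultures were harvested 5 days after transfection and all were treated with 1 μM TG (Thiamet-G, an inhibitor of the enzyme that removes O-GlcNAc from proteins) for the last 6 hr, so no group shows SFSWAP knockdown without TG. HEK293A-TOA is an established derivative of the human embryonic kidney line HEK293A, and all 4 groups come from this line. Transient siRNA lowers a factor and does not delete it.

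Vertebrate splicing machinery is thought to recognise most splice sites across the exon when the surrounding introns are long, and across the intron when the intron is short. An exon with a short intron on one side and a long intron on the other therefore has 1 flank of each kind. The acceptor (3′ splice site) is recognised through its AG and the pyrimidine-rich tract before it, and the donor (5′ splice site) by base pairing with U1 snRNA. SFSWAP is an SR-related nuclear protein named after the Drosophila suppressor of white apricot. UPF1 is the helicase on which nonsense-mediated decay (NMD) depends, so RNAs with a premature stop codon can accumulate where UPF1 is low.

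The splice sites of some of the exons named below are shown because the exons that gained and lost inclusion after SFSWAP knockdown differed in base composition. Each acceptor holds the last 20 bases of the intron and the first 3 of the exon, and each donor the last 3 bases of the exon and the first 6 of the intron, on the transcribed strand of GRCh38. The capitals mark the dinucleotide at the edge of the intron. The first 4 exons were called higher and the last 6 lower in at least 1 SFSWAP comparison.
WDR34 acceptor, chr9:128635257-128635279 (minus strand): cctgcatgctgttaactcAGgtg
WDR34 donor, chr9:128635086-128635094 (minus strand): aagGTacgt
AMDHD2 acceptor, chr16:2527753-2527775 (plus strand): cacttgctccctcctcccAGggc
AMDHD2 donor, chr16:2527983-2527991 (plus strand): tagGTgagg
PTPN23 acceptor, chr3:47404632-47404654 (plus strand): tctcccatcctgccccccAGaat
PTPN23 donor, chr3:47404777-47404785 (plus strand): ctgGTgaga
SLC9A3R2 acceptor, chr16:2036304-2036326 (plus strand): cctgtccgttgggcctgcAGgat
SLC9A3R2 donor, chr16:2036501-2036509 (plus strand): gagGTaccg
TIAL1 acceptor, chr10:119582606-119582628 (minus strand): ttcctggattttcttctcAGcaa
TIAL1 donor, chr10:119582453-119582461 (minus strand): aagGTaaga
NARS2 acceptor, chr11:78478468-78478490 (minus strand): tgtctttttattaaggacAGatt
NARS2 donor, chr11:78478432-78478440 (minus strand): aatGTaagt
RPGR acceptor, chrX:38291539-38291561 (minus strand): aatttctgttttctgtccAGttg
RPGR donor, chrX:38291387-38291395 (minus strand): atgGTaatg
SRP9 acceptor, chr1:225789014-225789036 (plus strand): attcagttttttgtccacAGcag
SRP9 donor, chr1:225789139-225789147 (plus strand): gtgGTagga
TRA2A acceptor, chr7:23522430-23522452 (minus strand): aatgttctttttccattaAGgtt
TRA2A donor, chr7:23522170-23522178 (minus strand): agaGTgaag
PKN2 acceptor, chr1:88804371-88804393 (plus strand): attttttttaattatcctAGtca
PKN2 donor, chr1:88804515-88804523 (plus strand): aggGTactt

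The short introns of 3 of these exons are printed in full as examples of the contrast, the first downstream of an exon called higher and the other 2 beside exons called lower. In each, the capitals are the first 2 and last 2 bases of the intron. The AMDHD2 intron is 70.3% G or C, the NARS2 intron 20.2% and the SRP9 intron 26.5%. Not all called exons followed this contrast. The short introns of POLB (59.5%) and PLD3 (60.5%), called lower, and TMPO (27.1%), called higher, went the other way. Without siUPF1, 31 exons called higher and 5 called lower had a short intron of 55% or more. Under 35% it was 13 called higher and 22 called lower.
AMDHD2 short intron, chr16:2527986-2528059 (plus strand, 74 nt, downstream of the exon): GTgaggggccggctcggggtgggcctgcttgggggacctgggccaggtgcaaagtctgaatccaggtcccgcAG
NARS2 short intron, chr11:78478471-78478584 (minus strand, 114 nt, upstream of the exon): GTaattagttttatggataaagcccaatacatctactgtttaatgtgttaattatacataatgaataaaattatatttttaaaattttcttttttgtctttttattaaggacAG
SRP9 short intron, chr1:225789142-225789239 (plus strand, 98 nt, downstream of the exon): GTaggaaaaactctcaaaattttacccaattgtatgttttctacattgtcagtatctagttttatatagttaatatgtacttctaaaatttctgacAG

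In the table without siUPF1 the exons had a median length of 114 nt, the short intron a median of 242 nt and the long intron a median of 7911 nt, and the longest reached 232663 nt. The short intron lay upstream of 1469 exons and downstream of 1592. Of the exons, 1381 were coding in GENCODE 44, 107 partly coding, 369 untranslated or in noncoding RNAs, and 1203 were not exons of GENCODE with these ends. Of all 3061, 1353 belonged to a MANE transcript, the 1 transcript chosen for each coding gene. Both splice sites carried the usual dinucleotides (AG before the exon, GT or GC after it) at 3036 of the 3060 exons with sequence, and 37.8% had a length that is a multiple of 3. Exons that differ only in 1 edge overlap and share reads, which was so for 1267 of the 3061. A further listed exon lay inside the long flank of 1424 (46.5%), so a flank defined by the event is not always spliced as 1 intron.

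Inclusion is given as the inclusion level, from 0 (always skipped) to 1 (always included), computed from inclusion and skipping reads after each was divided by its effective length, the number of positions at which such a read can start. Effects are given as the difference of mean inclusion levels and as the log2 odds ratio with its standard error (SE), both tested knockdown minus its control, so that a positive value means more inclusion after the knockdown. An exon was called when its adjusted p was at most 0.05 over all skipped exon events tested, in a quasi-binomial fit of inclusion against skipping reads with a dispersion shared across events. The p-values set a difference against a spread between cultures that was taken mostly from all events together. The spread of the 3 cultures a group at the exon itself entered only in small part. The reads summed over the listed skipped exon events, with a read entered again at each event it fits, came to 25938084 to 32640311 in the siSFSWAP/siUPF1 libraries, 32120531 to 35194795 with siNT/siUPF1, 36947787 to 38860728 with siSFSWAP and 33165134 to 40637073 with siNT. The exons described here took 2.11% to 2.39% of them. Reads at the events of SFSWAP itself, per 1000000 of these reads, were 29.1 ± 9.99 with siSFSWAP/siUPF1 against 72.4 ± 7.57 with siNT/siUPF1, and 47.1 ± 11.1 with siSFSWAP against 121 ± 6.65 with siNT (SD, n = 3 each, two-sided exact permutation p = 0.1 for each, the smallest possible). At the 15 UPF1 events in both tables they were 57.2 ± 16.1 with siNT/siUPF1 against 174 ± 31.5 with siNT (SD, n = 3 each, exact permutation p = 0.1). At the same events they were 78.0 ± 22.6 with siSFSWAP/siUPF1 against 205 ± 17.3 with siSFSWAP (SD, n = 3 each). The marker genes chosen for kidney-derived HEK293 cells and for colon cells had 0 to 2 listed events each, so these tables cannot check the line.

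SFSWAP knockdown in cells without siUPF1 asks which of these exons need or are held back by SFSWAP when NMD is active. Of the 3061 exons, 1151 could be tested, and 76 of them were called higher (in 47 genes) and 38 lower (in 24 genes). Among all 33839 events tested, 7.76% were called higher and 4.21% lower, so the shares here, 6.60% and 3.30%, lay a little under the background. The groups did not overlap at 71 of the 76 exons and at 32 of the 38. Over all tested exons they did not overlap at 25.1%, against 25.9% of all events. The median difference was 0.10 at the exons called higher and -0.08 at those called lower, and over all tested exons it was 0.0029. The remaining 1910 exons were not tested because 1402 had under 10 skipping reads over the 6 libraries and 508 under 10 inclusion reads.

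With each event's own dispersion no exon was called (0 higher and 0 lower), and limma on the log2 odds called 20 higher and 18 lower. The count of higher calls was 40, 34 and 35 without the siSFSWAP library listed 1st, 2nd and 3rd, and the count of lower calls was 25, 25 and 16 without these and 25 without the siNT library listed 3rd.

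Exons between 2 short introns, between 2 long introns and with other flanks were counted in the same fit, as a description only. Between 2 short introns 21.0% of 2846 tested exons were called higher and 6.47% lower, and between 2 long introns 1.28% of the tested exons were called higher and 0.973% lower. The exons with 1 flank of each kind lay between these values in both directions, near the 6.72% and 4.68% of the exons with other flanks. Whether the classes differ was not tested, and their median reads per library were 84.8 here, 148 between short introns and 80.7 between long introns.

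Exons named by the size of their difference averaged 50 or more reads in a library. Of those called higher, exon 6 of 9 of WDR34 (DYNC2I2 in GENCODE), an intermediate chain of the dynein-2 motor that carries cargo back along cilia, had the largest difference. This exon of 168 nt (chr9:128635092-128635259, short intron of 170 nt downstream) had inclusion levels of 1, 1 and 1 with siSFSWAP against 0.492, 0.80 and 0.481 with siNT. No skipping read was seen with siSFSWAP beside 122, 67 and 71 inclusion reads, whereas siNT libraries had 18, 5 and 8 skipping reads beside 47, 54 and 20 inclusion reads. Every siSFSWAP library was above every siNT library (difference 0.41, adjusted p = 6.63e-05), and the fitted odds ratio is left out because a group without skipping reads sets no finite value.

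Exon 5 of 11 of AMDHD2, the deacetylase that removes the acetyl group from N-acetylglucosamine 6-phosphate in the hexosamine pathway, followed the same course. The 213 nt exon (chr16:2527773-2527985) had levels of 1, 1 and 0.955 with siSFSWAP against 0.446, 0.754 and 0.585 with siNT, with 0, 0 and 1 skipping reads against 13, 3 and 9. The groups did not overlap (difference 0.39, adjusted p = 0.00162). A shorter form of the exon that starts at 2527865 was also called (difference 0.53, adjusted p = 0.00307) and shares its donor and short intron, hence reads, with the 213 nt form.

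Exon 3 of 7 of SLC9A3R2 (NHERF2), a PDZ scaffold of the sodium/hydrogen exchanger, had levels of 0.961, 0.876 and 0.915 with siSFSWAP against 0.508, 0.827 and 0.682 with siNT. All siSFSWAP libraries were above all siNT libraries, by a small margin over the highest one (log2 odds ratio 2.69, SE 0.80, adjusted p = 0.00353). Unlike WDR34 and AMDHD2, which stayed called without each library in turn, SLC9A3R2 was not called without the siNT library listed 1st (adjusted p = 0.102) or with the 1st siSFSWAP library left out (adjusted p = 0.0614).

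In DPCD, a gene named from a mouse deletion with primary ciliary dyskinesia, the 103 nt coding exon 5 of the MANE transcript was called higher with a difference of 0.13 (adjusted p = 0.0051, 274.5 reads per library on average). A 210 nt form with the same acceptor, which is not in GENCODE and averaged 138 reads, had levels of 0.838, 0.811 and 0.844 with siSFSWAP against 0.643, 0.715 and 0.423 with siNT. The siSFSWAP values were close together and above all siNT values (log2 odds ratio 2.01, SE 0.58, adjusted p = 0.00506), but the call was lost without the siNT library listed 3rd (adjusted p = 0.221) or the siSFSWAP library listed 2nd (adjusted p = 0.052). In the noncoding RNA OLMALINC, a 127 nt exon had levels of 0.851, 0.556 and 0.620 with siSFSWAP against 0.305, 0.439 and 0.369 with siNT (log2 odds ratio 1.53, SE 0.52, adjusted p = 0.0314). Its call depended on single libraries, with adjusted p between 0.0535 and 0.17 without any 1 of the 3 siSFSWAP libraries or the siNT libraries listed 1st and 3rd.

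Of the exons called lower, exon 2 of 14 of POLB, the DNA polymerase of short-patch base excision repair, moved furthest. This 58 nt coding exon, with a short intron of 326 nt upstream, had levels of 0.204, 0.289 and 0.262 with siSFSWAP against 0.599, 0.635 and 0.797 with siNT. The groups were far apart (log2 odds ratio -2.72, SE 0.32, adjusted p = 1.43e-10), and the exon stayed called without each library in turn. In TIAL1, which encodes the uridine-rich RNA binding protein TIAR, an exon of 150 nt (chr10:119582459-119582608) had levels of 0.785, 0.880 and 0.723 with siSFSWAP against 0.994, 0.985 and 0.965 with siNT. It was nearly always included in siNT cells and was skipped in part in every siSFSWAP library (log2 odds ratio -3.80, SE 0.76, adjusted p = 2.17e-07), also without each library in turn. The 99 nt form of this exon, exon 3 of the MANE transcript, was called lower too, with a difference of -0.16 beside -0.19 for the 150 nt form.

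The coding exon 9 of the MANE transcript of NARS2, the mitochondrial asparaginyl-tRNA synthetase, was called lower in 2 forms with the same donor. The 38 nt MANE form had levels of 0.954, 0.909 and 0.816 with siSFSWAP against 1, 0.984 and 0.994 with siNT (log2 odds ratio -4.06, SE 1.36, adjusted p = 0.00213), on 161 reads per library on average. The 33 nt form, on 84.0 reads, had levels of 0.892, 0.805 and 0.681 with siSFSWAP against 1, 0.969 and 0.991 with siNT (log2 odds ratio -4.50, SE 1.36, adjusted p = 0.000487). Of the 3 GENCODE transcripts that hold the 33 nt form 2 are annotated as NMD substrates, and it stayed called without each library. In RPGR, a GTPase regulator of the photoreceptor cilium, the 92 nt coding exon 12 of the MANE transcript had levels of 0.823, 0.968 and 0.709 with siSFSWAP against 1, 1 and 1 with siNT (adjusted p = 0.00417, 78.8 reads per library on average). A longer form of 149 nt with the same donor, which is not in GENCODE and averaged 51.8 reads, had levels of 0.732, 0.941 and 0.525 with siSFSWAP against 1, 1 and 1 with siNT, with 7, 1 and 13 skipping reads against 0, 0 and 0 (adjusted p = 0.00641, called without each library too). All 3 siSFSWAP libraries were therefore under all siNT libraries, but 1 of them by a single skipping read.

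PLD3, a phospholipase D family protein of the lysosome, had a 269 nt untranslated exon with levels of 0.547, 0.590 and 0.391 with siSFSWAP against 0.882, 0.776 and 0.685 with siNT (log2 odds ratio -1.87, SE 0.56, adjusted p = 0.00981). It is a longer form of MANE exon 2 (213 nt, same donor), which was called lower with a difference of -0.26. In EXOC6, a subunit of the exocyst, the 47 nt coding exon 10 of the MANE transcript had levels of 0.893, 0.941 and 0.907 with siSFSWAP against 1, 1 and 0.968 with siNT (difference -0.08, adjusted p = 0.0442, 151 reads per library on average). Its 87 nt form, not in GENCODE, with the same donor and 58.2 reads, had levels of 0.710, 0.780 and 0.742 with siSFSWAP against 1, 1 and 0.876 with siNT (difference -0.21, log2 odds ratio -2.94, SE 1.21, adjusted p = 0.0392). At these exons the groups did not overlap, yet the calls of the 269 nt and 87 nt forms were lost without single libraries. The adjusted p was 0.128 and 0.096 for PLD3 without the siNT library listed 1st or the siSFSWAP library listed 3rd. It was 0.0795 to 0.149 for EXOC6 without any library but the siNT library listed 3rd.

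**Figure D1:**
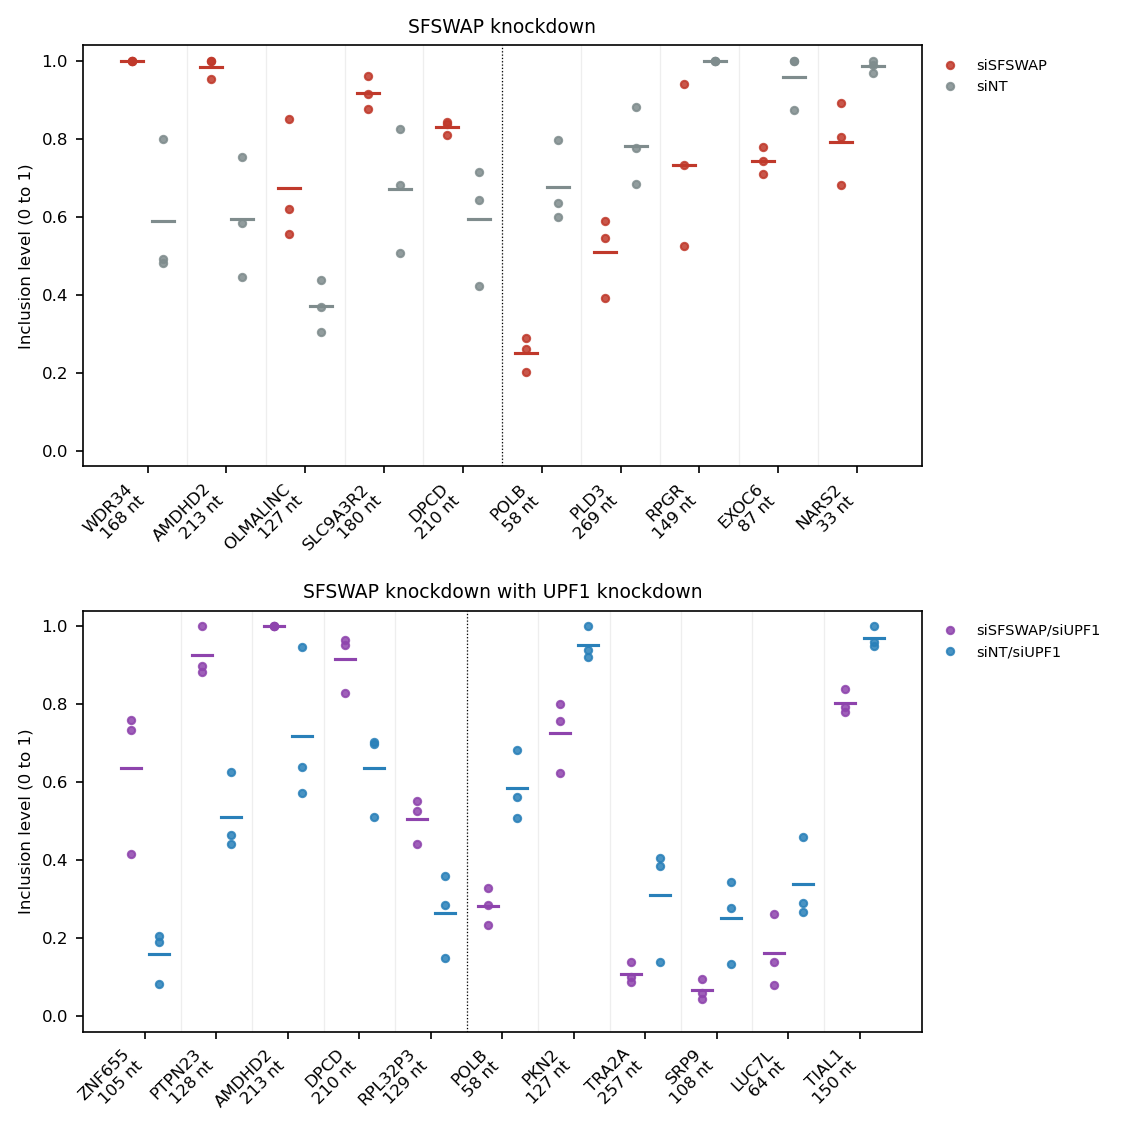
Inclusion level (y axis, 0 to 1) of the named exons in each library, with SFSWAP knockdown libraries left of their controls and a line at the mean of each group of 3. WDR34 and AMDHD2 reach 1 after SFSWAP knockdown, whereas POLB drops to 0.204 to 0.289 with siSFSWAP, against 0.599 to 0.797 with siNT.

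In cells with siUPF1, where NMD substrates are less degraded, the same knockdown was tested on 1214 of the 3061 exons. Here 33 exons were called higher (in 23 genes) and 53 lower (in 35 genes), that is 2.72% and 4.37% of those tested, beside 4.05% higher and 3.47% lower among all 34006 events tested. The groups did not overlap at 29 of the 33 and at 45 of the 53, and at 21.7% of all tested exons against 21.6% of all events. The median difference was 0.19 at the exons called higher and -0.07 at those called lower. Too few skipping reads (1330 exons) or inclusion reads (517 exons) left 1847 exons untested.

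These counts too rested on the shared dispersion, with 0 calls in either direction for each event's own dispersion and for limma on the log2 odds, while 242 exons had an unadjusted p under 0.05. They were 13, 19 and 11 higher without the siSFSWAP/siUPF1 library listed 1st, 2nd and 3rd and 18 with the 2nd siNT/siUPF1 library left out, and 23, 31, 33 and 29 lower without the same libraries. Between 2 short introns 14.7% of 2476 exons were called higher and 5.45% lower, and between 2 long introns 0.934% of 3105 were higher and 0.676% lower, with no test of the difference.

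Among exons that averaged 50 or more reads, the largest difference was at a 105 nt coding exon of the zinc finger gene ZNF655 (chr7:99571688-99571792), with levels of 0.759, 0.733 and 0.416 with siSFSWAP/siUPF1 against 0.204, 0.083 and 0.191 with siNT/siUPF1. Each knockdown library was far above every control library (log2 odds ratio 3.26, SE 0.64, adjusted p = 5.08e-05). Exon 3 of 25 of PTPN23, an endosomal sorting protein, had levels of 0.899, 0.883 and 1 with siSFSWAP/siUPF1 against 0.443, 0.466 and 0.627 with siNT/siUPF1 (log2 odds ratio 3.97, SE 1.12, adjusted p = 0.000549). Both stayed called without each library in turn.

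AMDHD2 had no skipping read in the siSFSWAP/siUPF1 libraries (levels 1, 1 and 1) against levels of 0.571, 0.638 and 0.947 with siNT/siUPF1 (adjusted p = 0.0283). The 210 nt exon of DPCD had levels of 0.965, 0.828 and 0.952 against 0.704, 0.511 and 0.698 with siNT/siUPF1 (log2 odds ratio 2.65, SE 0.83, adjusted p = 0.00751). Both exons, higher without siUPF1, were thus higher here too, with no overlap of the groups. The AMDHD2 call was lost without the siNT/siUPF1 library listed 1st (adjusted p = 0.0539) or any siSFSWAP/siUPF1 library (0.0948 to 0.15). The DPCD call was lost (adjusted p of 0.123, 0.0731 and 0.104) without the siNT/siUPF1 library listed 2nd or the siSFSWAP/siUPF1 library listed 1st or 3rd. In the pseudogene RPL32P3 a 129 nt exon, not in GENCODE with these ends, had levels of 0.526, 0.553 and 0.441 with siSFSWAP/siUPF1 against 0.149, 0.285 and 0.360 with siNT/siUPF1. Its groups did not overlap (adjusted p = 0.0388), but the adjusted p was 0.0555 to 0.243 without any library other than the siNT/siUPF1 library listed 3rd.

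Of the exons that averaged 50 or more reads, POLB exon 2 again had the largest loss, with levels of 0.234, 0.284 and 0.328 with siSFSWAP/siUPF1 against 0.508, 0.561 and 0.684 with siNT/siUPF1 (log2 odds ratio -1.79, SE 0.34, adjusted p = 6.59e-05). The TIAL1 exon had levels of 0.779, 0.838 and 0.794 with siSFSWAP/siUPF1 against 1, 0.959 and 0.950 with siNT/siUPF1 (log2 odds ratio -2.92, SE 0.59, adjusted p = 1.04e-05). Both kept the call without each library in turn.

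TRA2A is an SR-like activator of splicing that controls its own RNA through a poison exon. A 257 nt exon of TRA2A (chr7:23522176-23522432), not in GENCODE with these ends, had levels of 0.138, 0.101 and 0.087 with siSFSWAP/siUPF1 against 0.407, 0.386 and 0.139 with siNT/siUPF1. The highest knockdown library lay just under the lowest control library (log2 odds ratio -1.90, SE 0.38, adjusted p = 0.000148), and the call held without each library. A 64 nt exon of LUC7L, a U1 snRNP-associated protein, had levels of 0.081, 0.263 and 0.139 with siSFSWAP/siUPF1 against 0.267, 0.459 and 0.289 with siNT/siUPF1 (log2 odds ratio -1.48, SE 0.27, adjusted p = 3.38e-05, called without each library). A 57 nt form with the same donor was called as well (adjusted p = 0.000177).

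SRP9, which binds the Alu part of signal recognition particle RNA, had a 108 nt exon with levels of 0.045, 0.094 and 0.058 with siSFSWAP/siUPF1 against 0.344, 0.279 and 0.134 with siNT/siUPF1 (log2 odds ratio -2.02, SE 0.57, adjusted p = 0.00819). In PKN2, a protein kinase, the 144 nt coding exon 9 of the MANE transcript had levels of 0.811, 0.884 and 0.925 with siSFSWAP/siUPF1 against 1, 0.979 and 0.969 with siNT/siUPF1 (difference -0.11, adjusted p = 0.00795, 303 reads per library on average). Its 127 nt form, not in GENCODE, with the same acceptor and 108 reads, had levels of 0.623, 0.756 and 0.80 with siSFSWAP/siUPF1 against 1, 0.939 and 0.920 with siNT/siUPF1 (difference -0.23, log2 odds ratio -2.82, SE 0.92, adjusted p = 0.0122). None of these exons had groups that overlapped. The SRP9 call was lost without the siNT/siUPF1 library listed 1st (adjusted p = 0.0572) or the siSFSWAP/siUPF1 library listed 1st (0.0756) or 3rd (0.0638), and that of the 127 nt PKN2 form without the siNT/siUPF1 (0.0661) or siSFSWAP/siUPF1 (0.157) library listed 1st.

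The SFSWAP comparisons with and without siUPF1 share no library, so exons called in both were counted. Of 783 exons tested in both, 20 were called higher in both, which is 62.5% of the 32 higher calls with siUPF1 and 42.6% of the 47 without. A further 9 were called lower in both, 21.4% of 42 with siUPF1 and 30.0% of 30 without. The 29 exons lie in 19 genes, and at each of them the groups did not overlap in either comparison. No exon was called in opposite directions. The log2 odds ratios had the same sign at 520 of the 783 exons and correlated with r = 0.56, a value across exons that share libraries and in part reads. The same counts over all skipped exon events are not given, so this overlap is not shown to be particular to these exons.

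The exon called in both with the largest smaller difference was exon 3 of PTPN23, whose levels without siUPF1 were 0.797, 0.812 and 0.825 with siSFSWAP against 0.662, 0.390 and 0.263 with siNT (log2 odds ratio 2.61, SE 0.74, adjusted p = 0.00939). That call was lost when the siNT library listed 2nd (adjusted p = 0.066) or 3rd (0.0657) was left out, or the siSFSWAP library listed 2nd (0.05, just over the threshold). In DPCD an exon of 178 nt, which is the 210 nt exon with another acceptor, had levels of 0.714, 0.450 and 0.790 with siSFSWAP/siUPF1 against 0.063, 0.045 and 0.133 with siNT/siUPF1 (log2 odds ratio 4.42, SE 1.07, adjusted p = 0.000535). Without siUPF1 its levels were 0.450, 0.330 and 0.373 with siSFSWAP against 0.070, 0.10 and 0.084 with siNT (log2 odds ratio 2.77, SE 0.76, adjusted p = 0.0057), a call lost (adjusted p = 0.0661) when the 1st siSFSWAP library was left out. The 6 DPCD exons called higher in both are combinations of 3 acceptors and 2 donors at 1 place, so they share reads and are not separate observations.

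Among the other exons higher in both were those of C12orf10, DROSHA (the nuclease that crops primary miRNAs), DVL1 (a Wnt pathway protein), HNRNPUL2BSCL2 (the name in the tables), MZT2B, NUCB1, TFDP1 (the partner of E2F factors), TMPO (a lamina protein) and UBE2D2, with differences of 0.0334 to 0.131 with siSFSWAP/siUPF1 and 0.0156 to 0.150 with siSFSWAP. Lower in both, beside POLB and TIAL1, were exons of DEK, SKP1, TIMM21 and TXN, with differences between -0.0837 and -0.00536 with siSFSWAP/siUPF1 and between -0.077 and -0.0076 with siSFSWAP.

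**Figure D2:**
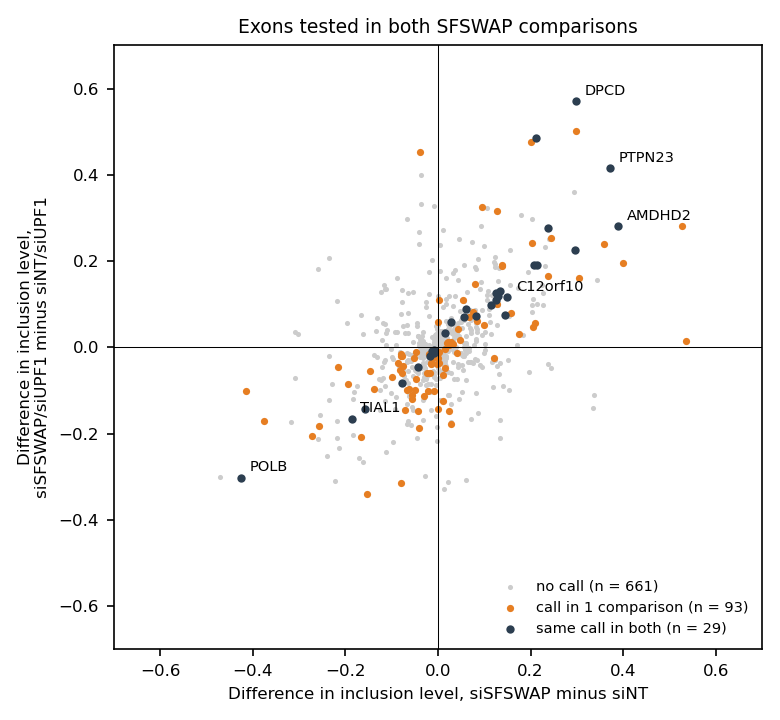
Difference in inclusion level after SFSWAP knockdown with siUPF1 and without it, 1 point for each of the 783 exons tested in both comparisons, with the exons called in both marked. The marked points lie in the quadrants of equal sign, 20 above 0 in both comparisons and 9 below 0 in both.

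Base composition was read from GRCh38 and took no part in choosing the exons. The exons called higher without siUPF1 had a median G and C content of 55%, those called lower 41.3%, and those not called 48.5%. With siUPF1 the medians were 54.9%, 41.7% and 47.3%. The short intron followed the exon, with medians of 51.3% beside exons called higher, 32.3% beside exons called lower and 42.7% beside exons not called, without siUPF1. The long intron, read over the 250 bases next to the exon, had medians of 52.4%, 36.0% and 42.0%.

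By the G and C content of the short intron, 13 exons were called higher and 22 lower of the 362 tested under 35%, without siUPF1. At 35 to 45% it was 15 higher and 10 lower of 271, at 45 to 55% it was 17 and 1 of 203, and at 55% or more it was 31 and 5 of 314. The balance of higher and lower calls thus turned between the lowest class and the highest. With siUPF1 the counts were 2 higher and 30 lower of 432, then 6 and 10 of 318, 11 and 6 of 206, and 14 and 7 of 257. Overlapping forms of 1 exon each count in these classes and in the medians of base composition and splice site scores, and are not separate observations. With siUPF1, forms of DPCD and NUCB1 were most of the higher calls at 45 to 55%, and forms of UROS and POLB most of the lower calls at 55% or more.

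The mean level over the tested exons, called or not, was 0.586 to 0.589 in the siSFSWAP libraries against 0.539 to 0.560 in the siNT libraries where the short intron held 55% G and C or more. Under 35% it was 0.423 to 0.425 with siSFSWAP against 0.434 to 0.451 with siNT. The libraries of both groups were apart in both classes, in opposite directions. With siUPF1 the mean was 0.537 to 0.543 with siSFSWAP/siUPF1 against 0.491 to 0.526 with siNT/siUPF1 at 55% or more, and 0.391 to 0.399 with siSFSWAP/siUPF1 against 0.399 to 0.421 with siNT/siUPF1 under 35%, where the groups met at 0.399. The same order of medians was seen between 2 short introns (59.2% at exons called higher, 44.98% lower, 56.6% not called, without siUPF1) and with other flanks (57.0%, 43.3% and 48.3%), so it is not shown to be particular to exons with 1 short and 1 long intron. Between 2 long introns the medians were 46.5% at exons called higher, 41.7% lower and 46.3% not called without siUPF1. With siUPF1 they were 49.7%, 49.1% and 45.8%, so there the exons called lower were not under those not called.

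**Figure D3:**
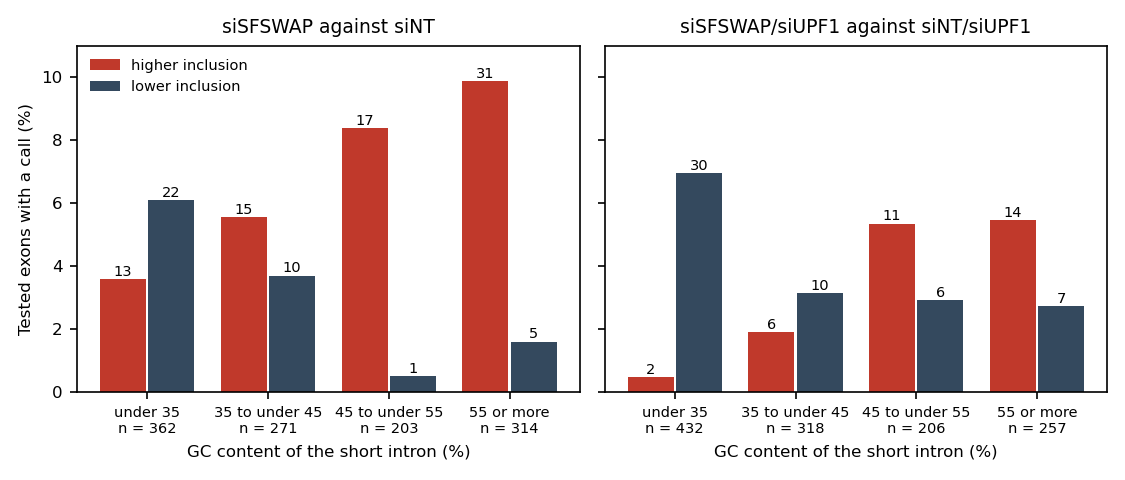
Share of tested exons called higher and lower (percent, y axis) by the G and C content of the short intron, for SFSWAP knockdown with siUPF1 and without it. Without siUPF1, 22 of 362 exons were lower and 13 higher under 35%, and 5 of 314 were lower and 31 higher at 55% or more.

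Splice sites were scored in bits as the sum over positions of the log2 ratio of each base's frequency at the sites of all skipped exons to an even frequency. The exons called higher without siUPF1 had a median acceptor score of 6.67, those called lower 9.59 and those not called 8.21. The median donor scores were 6.50, 7.95 and 7.47. With siUPF1 the acceptor medians were 6.81, 9.87 and 8.30 and the donor medians 6.36, 7.63 and 7.47. In both comparisons the median at both sites was thus lower for the exons called higher than for those called lower. The printed acceptors mostly followed the medians, with scores of 5.67 (WDR34), 5.76 (SLC9A3R2) and 7.32 (PTPN23) at exons called higher, against 11.4 (RPGR), 11.1 (TRA2A), 10.3 (TIAL1), 10.1 (SRP9) and 10.1 (PKN2) at exons called lower. Exceptions among the printed acceptors were that of AMDHD2, called higher, at 8.61 with 88.9% pyrimidines in the 18 bases before its AG, and that of the 33 nt NARS2 form (7.94), called lower. Among named exons whose sites are not printed, the acceptors of OLMALINC (4.90) and DPCD (6.67 and 7.78), called higher, and LUC7L (10.7), called lower, followed the medians. Those of PLD3 (-0.70) and EXOC6 (7.99), called lower, and of ZNF655 (9.52) and RPL32P3 (8.82), called higher, did not. The printed donors did not follow the medians. They scored 9.60 (WDR34), 8.87 (AMDHD2), 8.04 (PTPN23) and 3.75 (SLC9A3R2) at exons called higher, against 2.25 (TRA2A), 4.39 (PKN2), 5.83 (SRP9), 6.14 (RPGR), 9.19 (NARS2) and 11.1 (TIAL1) at exons called lower.

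The level in control cells also differed. The exons called higher without siUPF1 had a median level of 0.605 with siNT, those called lower 0.988 and those not called 0.239. Of the 229 tested exons at 0.5 to 0.9 with siNT, 27 were called higher and 4 lower, and of the 301 over 0.9, 17 were higher and 26 lower. With siUPF1 the median siNT/siUPF1 levels were 0.730 at exons called higher and 0.283 at those called lower. Of the 500 exons under 0.1 with siNT/siUPF1, 3 were called higher and 14 lower, whereas of the 455 under 0.1 with siNT, 23 were called higher and 4 lower without siUPF1. These counts use the control level, which is also 1 side of the difference, and are given as a description. The classes by G and C content of the short intron also differed in median siNT level, 0.173 under 35% and 0.677 at 55% or more. Whether the calls follow base composition apart from the control level was not tested.

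The calls were also counted by the side of the short intron and other features, with no test between the classes. With the short intron downstream, 43 exons were called higher and 24 lower of 555 tested, and with it upstream 33 and 14 of 596, without siUPF1. With siUPF1 the counts were 19 and 35 of 590 downstream and 14 and 18 of 624 upstream. The share called lower was 4.32% downstream and 2.35% upstream without siUPF1, and 5.93% and 2.88% with it. Exons whose long intron was under 10000 nt gave 62 higher and 27 lower calls of 739 without siUPF1, and those with 20000 nt or more gave 4 and 4 of 127. With siUPF1 these were 30 and 41 of 801, and 2 and 0 of 136. Long introns between these lengths gave 10 and 7 of 284 without siUPF1, and 1 and 12 of 276 with it. Exons of the MANE transcript were called higher in 28 and lower in 17 of 350 cases without siUPF1, and the others in 48 and 21 of 801. With siUPF1 the MANE exons gave 18 higher and 14 lower of 329, and the others 15 and 39 of 885. By reading frame, 32 of 452 exons whose length is a multiple of 3 were called higher and 15 lower, and 44 of 699 others were called higher and 23 lower, without siUPF1. With siUPF1 these were 10 and 28 of 460, and 23 and 25 of 754. Exons with a further listed exon inside the long flank gave 45 higher and 26 lower calls of 533 without siUPF1. Those without such an exon gave 31 and 12 of 618. With siUPF1 these were 20 and 22 of 537, and 13 and 31 of 677.

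UPF1 knockdown asks which of these exons change when NMD is reduced, with SFSWAP present. At 945 of the 1842 exons that are the same event in both tables, 11 were called higher (in 10 genes) and 2 lower with siNT/siUPF1 against siNT, beside 0.778% higher and 0.396% lower among all 28261 events tested. That is 1.16% and 0.212% of the tested exons. The median siNT level of the 11 was 0.057, and 9 of them were under 0.1, beside 373 of all 945 tested exons. The short introns of the 11 had a median of 411 nt, against 254.5 nt for all tested exons. With each event's own dispersion, with limma on the log2 odds and without the minimum of reads per form the counts were 0 and 0. Leaving out 1 library gave 4 higher calls without the siNT/siUPF1 library listed 2nd, 5 without the siNT library listed 1st, 17 without the siNT library listed 3rd. Lower calls numbered 1 when the 1st siNT library was left out and 4 when the 3rd was.

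The 64 nt LUC7L exon, in 2 GENCODE transcripts of which 1 is annotated for NMD, had levels of 0.267, 0.459 and 0.289 with siNT/siUPF1 against 0.079, 0.097 and 0.222 with siNT (log2 odds ratio 1.79, SE 0.31, adjusted p = 0.000243). All siNT/siUPF1 libraries were above all siNT libraries, and the call held without each library. A 165 nt exon of BIRC5, which encodes the mitotic regulator survivin, was listed at 0.048, 0.094 and 0.048 with siNT/siUPF1 against 0.009, 0.008 and 0.030 with siNT (log2 odds ratio 1.99, SE 0.34, adjusted p = 5.34e-05, called without each library). It too is in 2 transcripts, 1 of them annotated for NMD.

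A 68 nt exon of TOMM20, a receptor for protein import into mitochondria, had levels of 0.179, 0.221 and 0.109 with siNT/siUPF1 against 0.042, 0.077 and 0.073 with siNT (log2 odds ratio 1.58, SE 0.35, adjusted p = 0.00609). A 241 nt exon of MAPK9 (the kinase JNK2) had levels of 0.304, 0.269 and 0.146 with siNT/siUPF1 against 0.064, 0.089 and 0.0996 with siNT (log2 odds ratio 1.74, SE 0.41, adjusted p = 0.0139). A 43 nt exon of NMT2, an N-myristoyltransferase, had levels of 0.249, 0.372 and 0.375 with siNT/siUPF1 against 0.169, 0.210 and 0.148 with siNT (log2 odds ratio 1.24, SE 0.34, adjusted p = 0.0493). None of these groups overlapped, but the calls rested on single libraries. Without the siNT library listed 1st the adjusted p was 0.0598 for TOMM20, 0.12 for MAPK9 and 0.197 for NMT2, and without the siNT/siUPF1 library listed 2nd it was 0.0722, 0.0632 and 0.184. The MAPK9 call was also lost without the siNT/siUPF1 library listed 1st (0.0712), and the NMT2 call without the siNT library listed 3rd (0.21) or the siNT/siUPF1 library listed 3rd (0.0794).

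The 2 exons called lower were exon 7 of 9 of CENPH, a kinetochore protein, and exon 3 of 11 of RBM34, an RNA binding protein, both coding exons of the MANE transcript. CENPH exon 7 (52 nt) had levels of 0.676, 0.735 and 0.794 with siNT/siUPF1 against 0.963, 0.863 and 0.933 with siNT (log2 odds ratio -2.12, SE 0.37, adjusted p = 9.24e-05). RBM34 exon 3 (137 nt) had levels of 0.895, 0.847 and 0.930 with siNT/siUPF1 against 0.960, 0.959 and 0.964 with siNT (log2 odds ratio -1.64, SE 0.39, adjusted p = 0.0102). Neither pair of groups overlapped. The CENPH call held without each library, and the RBM34 call was lost without the siNT library listed 1st (adjusted p = 0.0527) or the siNT/siUPF1 library listed 2nd (0.148).

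The siNT/siUPF1 libraries are shared by this comparison and by that of SFSWAP in the UPF1 knockdown background, so values are given side by side only. TOMM20 and BIRC5 had their 3 highest levels in the siNT/siUPF1 libraries, while LUC7L values with siNT/siUPF1 lay above every siSFSWAP/siUPF1 and siNT value. TOMM20 had levels of 0.059, 0.106 and 0.041 with siSFSWAP/siUPF1, with a log2 odds ratio of -1.61 (SE 0.35, adjusted p = 0.000404) against siNT/siUPF1. BIRC5 had levels of 0.015, 0.035 and 0.023 with siSFSWAP/siUPF1, with a log2 odds ratio of -1.46 (SE 0.24, adjusted p = 1.55e-06) against siNT/siUPF1. CENPH exon 7 had levels of 0.818, 0.837 and 0.877 with siSFSWAP/siUPF1, above all 3 siNT/siUPF1 libraries (log2 odds ratio 1.00, SE 0.26, adjusted p = 0.00535), a call lost without the siNT/siUPF1 library listed 1st or the siSFSWAP/siUPF1 library listed 3rd (adjusted p = 0.107 each). RBM34 exon 3 had levels of 0.936, 0.942 and 0.970 with siSFSWAP/siUPF1 (log2 odds ratio 1.26, SE 0.37, adjusted p = 0.0138 against siNT/siUPF1).

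**Figure D4:**
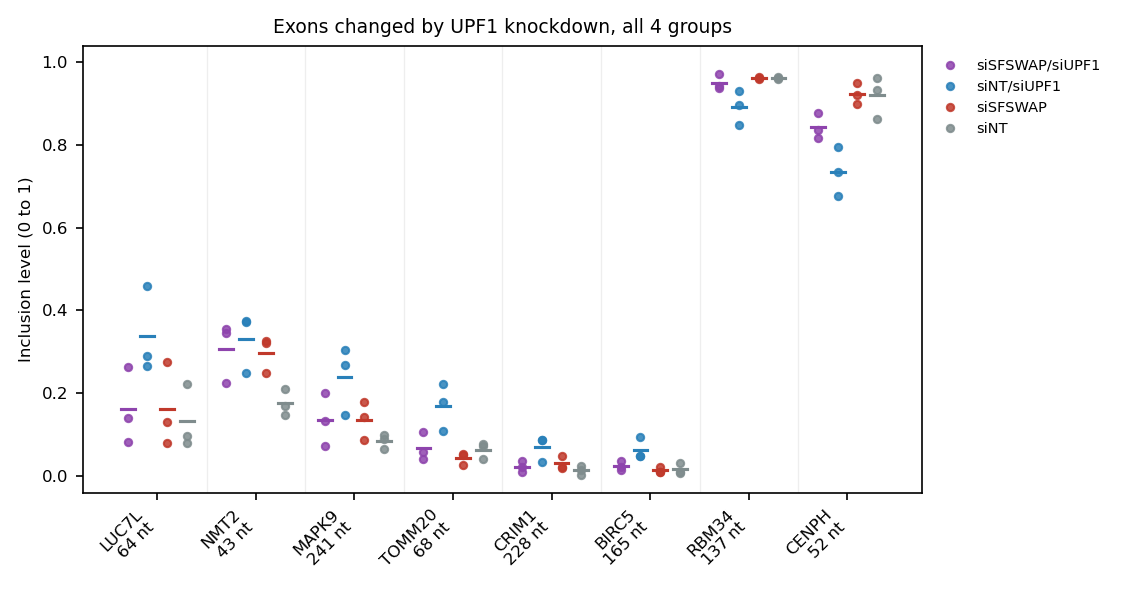
Inclusion level (y axis) in each of the 12 libraries of exons called after UPF1 knockdown, with a line at the mean of each group of 3, in the order siSFSWAP/siUPF1, siNT/siUPF1, siSFSWAP and siNT. BIRC5 sits at 0.048 to 0.094 with siNT/siUPF1 and at 0.008 to 0.035 in the other 9 libraries.

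With SFSWAP already knocked down, no exon was called after UPF1 knockdown (siSFSWAP/siUPF1 against siSFSWAP, 0 higher and 0 lower of 913 tested in the quasi-binomial fit, 46 with an unadjusted p under 0.05). Each event's own dispersion and limma on the log2 odds gave 0 as well, and among all 25748 events tested 0.0544% were called higher and 0.0272% lower. LUC7L had levels of 0.081, 0.263 and 0.139 with siSFSWAP/siUPF1 against 0.080, 0.131 and 0.275 with siSFSWAP, which overlap.

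The difference of the 2 SFSWAP effects was itself tested at 1288 exons, and none was called (0 higher and 0 lower in the quasi-binomial fit of all 12 libraries, 46 with an unadjusted p under 0.05, and 0 with each event's own dispersion or limma). Among all 38928 events tested, 0.00257% were called higher and 0.00514% lower. The lowest p belonged to a 228 nt exon, not in GENCODE with these ends, of CRIM1, a membrane protein that binds bone morphogenetic proteins. This exon had a difference of log2 odds ratios of -2.88 (SE 0.80, adjusted p = 0.81). Its levels were 0.035, 0.009 and 0.021 with siSFSWAP/siUPF1, 0.086, 0.087 and 0.035 with siNT/siUPF1, 0.019, 0.023 and 0.049 with siSFSWAP and 0.003, 0.014 and 0.025 with siNT. The next lowest p, with 1 exon a gene, were those of the 57 nt LUC7L form (-1.69), exon 13 of 37 of CDC42BPA, a protein kinase (-3.11), and MAPK9 (-1.69), each with a standard error of at least 0.56 and an adjusted p of 0.98. All 4 differences are negative, that is toward less inclusion after SFSWAP knockdown with siUPF1 than without it, and none passed the threshold.

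The retained intron tables list the short intron of some of these exons as an event of its own. It was listed for 844 exons without siUPF1 and 835 with it, and 296 and 265 introns could be tested. In the comparison without siUPF1, 3 were called higher (more retained) and 11 lower, beside 1.33% higher and 9.1% lower among all 5845 retained introns tested. In the UPF1 knockdown background 1 was called higher and 4 lower, beside 0.979% and 2.59% of 5105. The lower calls made up 3.72% and 1.51% of the tested short introns. With each intron's own dispersion and with limma all these counts were 0, and 33 and 30 introns had an unadjusted p under 0.05. Without siUPF1 the lower calls were 7 when the 1st or 3rd siNT library or the 2nd siSFSWAP library was left out, and the higher calls were 0 to 2 over the 6 libraries. With siUPF1 the lower calls were 2 and 1 when the 1st and the 3rd siSFSWAP/siUPF1 library was left out.

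The short intron of USF2, a basic helix-loop-helix leucine zipper transcription factor, had the lowest adjusted p. It is 153 nt long (chr19:35278793-35278945) and was retained at 0.0053, 0.0093 and 0.0073 with siSFSWAP against 0.061, 0.023 and 0.041 with siNT (log2 odds ratio -2.48, SE 0.35, adjusted p = 3.96e-06). With siUPF1 it was retained at 0.0061, 0.0084 and 0.0046 with siSFSWAP/siUPF1 against 0.024, 0.032 and 0.013 with siNT/siUPF1 (log2 odds ratio -1.84, SE 0.39, adjusted p = 0.00319). The groups did not overlap in either. The exon beside it was nearly always included (0.982, 0.988 and 0.990 with siSFSWAP against 0.967, 0.983 and 0.958 with siNT, adjusted p = 0.243).

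Most other short introns named were retained less after SFSWAP knockdown. That of CANT1, a nucleotidase of the secretory pathway, was at 0.522, 0.636 and 0.534 with siSFSWAP against 0.826, 0.702 and 0.820 with siNT (log2 odds ratio -1.45, SE 0.35, adjusted p = 0.00416). That of AKAP8L, a nuclear A-kinase anchor protein, was at 0.893, 0.912 and 0.920 with siSFSWAP against 0.988, 0.987 and 0.977 with siNT (log2 odds ratio -2.61, SE 0.62, adjusted p = 0.00188). The groups were apart in both. That of MCRIP2 was at 0.054, 0.075 and 0.061 with siSFSWAP against 0.197, 0.143 and 0.386 with siNT (log2 odds ratio -2.10, SE 0.50, adjusted p = 0.0038). In R3HDM4 the short intron was at 0.063, 0.170 and 0.109 with siSFSWAP/siUPF1 against 0.794, 0.572 and 0.348 with siNT/siUPF1 (log2 odds ratio -3.27, SE 0.73, adjusted p = 0.00441), again without overlap. The 1 intron called higher with siUPF1, in DEK, was at 1, 1 and 1 with siSFSWAP/siUPF1 against 1, 0.079 and 0.074 with siNT/siUPF1 (adjusted p = 0.000363), so 1 control library held the same value as the knockdown.

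Beside the introns called lower 12 exons were tested without siUPF1, and 8 of them were not called. At the other 4, which are 2 forms each beside 1 intron of AMDHD2 and 1 of TOMM40 (the channel of the mitochondrial import machinery), the short intron was called lower and the exon higher after SFSWAP knockdown without siUPF1, and at 2, of ZFAS1 (a snoRNA host RNA) and SAMD4A, the intron was called higher and the exon lower. The AMDHD2 intron printed above was retained at 0.177, 0.058 and 0.058 with siSFSWAP against 0.337, 0.323 and 0.448 with siNT (log2 odds ratio -2.67, SE 0.84, adjusted p = 0.0258). In none was the exon called in the same direction as its short intron. Of all 191 tested exons whose short intron was also tested, 20 were called higher and 11 lower without siUPF1. With siUPF1 it was 7 and 14 of 194. There 7 exons, forms beside the USF2 intron among them, were tested beside introns called lower, and none was called. The 2 readouts share the junction reads of the exon with its near neighbour and are not independent.

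**Figure D5:**
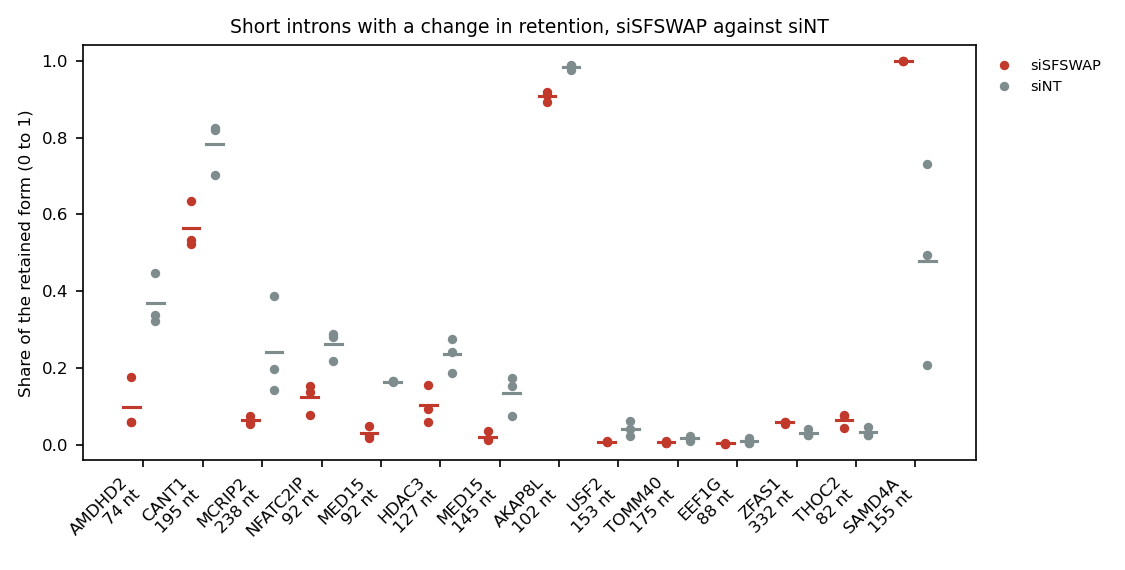
Share of the retained form (y axis, 0 to 1) of the 14 short introns called in siSFSWAP against siNT, in each library, with siSFSWAP left of siNT and a line at the mean of each group of 3. The CANT1 intron lies at 0.522 to 0.636 with siSFSWAP against 0.702 to 0.826 with siNT, and the AMDHD2 intron at 0.058 to 0.177 with siSFSWAP against 0.323 to 0.448 with siNT.

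The exons were also counted in lists of genes by function, without a test of the lists. Among DNA repair genes POLB was the 1 exon called lower of 11 tested without siUPF1, and with siUPF1 the 2 lower calls of 16 were overlapping forms of this POLB exon, with none higher. Over all skipped exon events of these genes 24 were higher and 15 lower of 447 without siUPF1, and 21 and 15 of 504 with it. Among cell cycle and mitosis genes 5 of 26 were called higher and 0 lower without siUPF1, of which 3 lie in SMC1A and 2 of those are forms of 1 exon. With siUPF1 1 was higher and 4 lower of 33, of which 2 are forms of 1 BIRC5 exon. Over all events of these genes 50 were higher and 32 lower of 570 without siUPF1, and 32 and 29 of 575 with it. A 146 nt exon of the cohesin gene SMC1A had levels of 0.154, 0.159 and 0.153 with siSFSWAP against 0.085, 0.055 and 0.073 with siNT (log2 odds ratio 1.30, SE 0.34, adjusted p = 0.00403, called without each library). Exon 18 of 36 of the kinase gene NEK1 had levels of 0.252, 0.379 and 0.259 with siSFSWAP against 0.152, 0.095 and 0.120 with siNT (adjusted p = 0.0281, and 0.0508 to 0.149 without any 1 library but the siNT library listed 1st). A 134 nt exon of SMC5 stood at 0.034, 0.062 and 0.034 with siSFSWAP against 0, 0.024 and 0.010 with siNT (adjusted p = 0.0491, and 0.0752 to 0.217 without any 1 library but the siNT library listed 2nd). The groups did not overlap in these 3 genes. With siUPF1 a 146 nt exon of the chromokinesin gene KIF4A was called lower at levels of 0.004, 0.012 and 0.004 with siSFSWAP/siUPF1 against 0.024, 0.050 and 0.020 with siNT/siUPF1 (adjusted p = 0.0434), on 2, 5 and 2 inclusion reads against 11, 21 and 11. Its adjusted p was 0.0508 to 0.252 without any 1 library but the siNT/siUPF1 library listed 3rd.

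Splicing genes held few of these exons. Of the hnRNP genes only HNRNPC, whose protein binds uridine tracts, had tested exons without siUPF1, and 3 of its 4, overlapping forms of 1 exon, were called higher. Over all events of hnRNP genes 28 were higher and 31 lower of 274. The 210 nt form had levels of 0.045, 0.039 and 0.051 with siSFSWAP against 0.020, 0.026 and 0.024 with siNT (log2 odds ratio 0.97, SE 0.25, adjusted p = 0.00334, called without each library). With siUPF1 0 of 5 hnRNP exons were called, beside 13 higher and 28 lower of all 252 events. Of the SR proteins 1 exon was tested in each comparison, that of TRA2A, called lower with siUPF1 only. With siUPF1 2 of all 88 SR protein events were higher and 23 lower, and without it 4 and 21 of 117. The TRA2A form tested without siUPF1, which was not called, had a difference of -0.097. Whether the TRA2A effect differs between the comparisons could not be tested, since without siUPF1 the table lists another form. Of the branchpoint, U2 and U1 factors the 2 forms of the LUC7L exon were called lower of 4 tested with siUPF1, beside 15 higher and 15 lower of all 179 events. Without siUPF1 it was 0 of 2, beside 15 higher and 18 lower of all 176 events. Of the other splicing regulators 2 forms of the TIAL1 exon were called lower, of 17 tested without siUPF1 and of 15 with it, beside 26 higher and 31 lower of all 413 events without siUPF1 and 8 and 36 of 347 with it. Of the splicing kinases 2 of 8 were called lower without siUPF1, both forms of 1 exon of the SR protein kinase gene SRPK1, and 0 of 5 with siUPF1. Over all events of these genes 2 were higher and 6 lower of 49 without siUPF1, and 1 and 0 of 48 with it. The MANE form (exon 12) had levels of 0.984, 1 and 0.972 with siSFSWAP against 1, 1 and 1 with siNT (adjusted p = 0.0498), and the 129 nt form had levels of 0.959, 1 and 0.935 with siSFSWAP against 1, 1 and 1 with siNT. The groups overlap at 1 in both, and the call of the 129 nt form was lost without any siNT library (adjusted p = 0.0916 to 0.102).

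Of the remaining lists given here, without siUPF1 none was called among 7 exons of chromatin modifiers, 7 of RPS19 (the 1 cytosolic ribosomal protein gene with tested exons), 4 of autophagy and lysosome genes and 2 of the NMD factor CASC3. Over all events of these lists, in this order, 62 were higher and 13 lower of 570, 82 and 57 of 613, 19 and 5 of 186, and 9 and 4 of 100. With siUPF1 1 of 8 exons of chromatin modifiers was called lower, in SETD5, at 0.111, 0.127 and 0.184 with siSFSWAP/siUPF1 against 0.169, 0.370 and 0.311 with siNT/siUPF1 (adjusted p = 0.0134), where the groups overlap and the call was lost without the siNT/siUPF1 library listed 2nd (0.205) or the siSFSWAP/siUPF1 library listed 1st (0.116) or 2nd (0.115). None was called among 4 exons of ribosomal protein genes, 3 of autophagy genes and 2 of NMD factors. Over all events with siUPF1, 33 were higher and 18 lower of 544 in chromatin modifiers, and 40 and 28 of 434 in ribosomal protein genes. In autophagy genes it was 11 and 1 of 189, and in NMD factors 2 and 8 of 80. After UPF1 knockdown alone, the calls in these lists were 2 forms of the LUC7L exon and 1 BIRC5 exon, higher, and CENPH exon 7, lower. The LUC7L forms were the 2 exons tested in branchpoint, U2 and U1 factors, beside 7 higher and 4 lower of all 135 events. BIRC5 and CENPH were the 1 higher and 1 lower call of 26 in cell cycle and mitosis genes, beside 5 and 6 of all 478 events.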

How the data were processed

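PolyA RNA of HEK293A-TOA cells was prepared with the KAPA mRNA HyperPrep kit, with 3 biological replicates for each of 4 groups. The authors trimmed reads with cutadapt 1.9.1, aligned them with STAR 2.7 in 2 passes to GRCh38.p8 with RefSeq genes plus predicted decoy exons, and ran rMATS on each pair of groups, with counts of junction and exon reads. The deposited tables, 2 of skipped exons and 2 of retained introns, hold for each event the raw inclusion and skipping read counts and the inclusion level of each library, joined in 1 cell per group, and these are the values used. The tables also hold the authors' p-values, FDR and level differences, which were not used. The cells list 3 libraries without naming them, so "listed 1st" gives a place in the cell and no replicate number. Which cell belongs to which group was taken from the study's own definition of the level difference. Duplicate rows (2 and 3) were dropped, and levels recomputed from the counts were within 0.0005 of the deposited ones.

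The members and gene lists were chosen with earlier results of these data known. Inclusion against skipping reads were fitted by quasi-binomial logistic regression in R 4.3.3, with the Pearson dispersion of each event moderated across events by limma 3.58.1 and not allowed under 1, an F test, and Benjamini-Hochberg adjustment over all events that averaged 10 or more reads in a library and had at least 10 inclusion and 10 skipping reads (threshold 0.05). The difference of the SFSWAP effects was a Wald test over 12 libraries. UPF1 comparisons used events listed in both tables, which rMATS made in separate runs. A p-value rests on a spread between cultures taken mostly from all events, and only in small part from the 3 cultures a group at the event itself. Precision is limited by the reads at each event, a median of 84.8 (without siUPF1) and 86.6 (with it) per library at the tested exons. Exons were annotated with GENCODE 44, and sequence was read from GRCh38. Splice sites were scored over 20 intron and 3 exon bases (acceptor) and 3 exon and 6 intron bases (donor). The exons named are, for each SFSWAP comparison, the 6 largest differences up and down at called exons that averaged 50 or more reads and whose groups did not overlap, at most 1 a gene, then exons called in both comparisons, called after UPF1 knockdown, lowest in p for the difference of effects, with a called short intron, or called in a listed gene. Alternatives were each event's own dispersion, limma fitted to log2 odds (0.5 added to each count), a mean of 30 reads, no minimum per form, 1 event per exon and leaving out each library. The code was checked on simulated data. Python 3.11.15 with pandas 2.3.3, numpy 2.4.6, pysam 0.24.0 and matplotlib 3.10.9 was used. Forms of named exons that are in the MANE transcript were added after their values were seen. A few named exons and 2 gene lists that were computed are not reported here.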

Additional observations from a re-analysis of the deposited data

How the results depend on the processing

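Calls depended most on sharing the dispersion across events. With each event's own dispersion the counts were 0 in both directions in every comparison, retained introns included. With limma on the log2 odds they were 20 higher and 18 lower for siSFSWAP against siNT, and 0 for siSFSWAP/siUPF1 against siNT/siUPF1, for siNT/siUPF1 against siNT, and for the retained introns. Leaving out 1 library gave 34 to 64 higher and 16 to 45 lower for siSFSWAP against siNT, 11 to 44 higher and 23 to 62 lower for siSFSWAP/siUPF1 against siNT/siUPF1, 4 to 17 higher and 1 to 4 lower for siNT/siUPF1 against siNT, and 0 to 1 higher for siSFSWAP/siUPF1 against siSFSWAP. For retained short introns it gave 0 to 2 higher and 7 to 12 lower without siUPF1, and 1 to 2 higher and 1 to 4 lower with siUPF1. Without the minimum of reads per form, UPF1 knockdown gave 0 calls. With 1 exon per group of overlapping exons, an alternative chosen after seeing the data, there were 48 higher and 23 lower without siUPF1, and 23 higher and 35 lower with it. Of 44 named results that were called, 19 kept the call without each library, and none of the 50 named results changed sign under the alternatives run. No paired analysis was possible because the table columns carry no replicate numbers. The edgeR alternative was not run, because the tables give joined cells of inclusion and skipping reads per event. Few skipping or inclusion reads left 1910 and 1847 exons untested, so no statement covers them.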
